A study of Mus musculus with 17 samples.

Results

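Zbtb7b and Runx3 encode the transcription factors that oppose each other when a thymocyte becomes a CD4 or a CD8 T cell. They are described here through every enriched interval (island) of 4 histone marks and every Tcf1 peak that overlaps a fixed mm9 window at each gene: chromosome 3, 89175000 to 89215000 (40 kb) for Zbtb7b, and chromosome 4, 134650000 to 134745000 (95 kb) for Runx3. The windows are set by position and not by reads. They held 81 of the 346699 islands, 27 at Zbtb7b and 54 at Runx3, and 4 of the 7807 Tcf1 peaks, all at Runx3.

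ChIP-seq, which sequences the DNA pulled down with an antibody to each mark, was run on mature thymocytes, gated for high TCRβ and for lack of CD69 and CD24. WT CD8 and WT CD4 cells came from wild-type control mice, and DKO CD8 cells had the genotype Tcf1-/-Lef1-/-, with both genes deleted by CD4-Cre, a recombinase driven by regulatory sequence of Cd4 that acts from the stage at which thymocytes express CD4. The WT CD4 samples carry a surface phenotype that reads CD8+; the titles and source names, which say CD4, were followed. Tcf1 was mapped in splenic CD8 T cells of wild-type mice, sorted as TCRβ-high, against Tcf1-/- cells as the control. Neither the ages of the mice nor how many were pooled is stated in the labels. Each group had 1 library per mark, so no difference could be set against replicates and none has a p-value. The 95% intervals cover counting error only, and reads without molecular identifiers are not independent molecules.

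Zbtb7b encodes ThPOK, a zinc finger repressor that CD4-lineage cells need and that restrains Runx3 and CD8 genes. Runx3 binds DNA with its partner Cbfβ, drives the CD8 cytotoxic programme and restrains Cd4 and Zbtb7b. Tcf1 and Lef1 are related factors of the same lineage decision. Promoters in use carry H3K4me3, and acetylation of H3K27 and H3K9 is found at promoters and enhancers in use, while H3K27me3 is laid down by Polycomb proteins on silent chromatin. Both genes are known to be transcribed from more than one start.

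RefSeq lists 2 starts for each gene, and the 250 bases before each are shown because the H3K4me3 islands described next fall at separate places in each window. The sequences are from the GRCm38.p6 build, 5′ to 3′ on the gene's strand, and no position was carried over to mm9. Capitals mark matches to TGTGGT, the core of the Runx site, read on either strand (ACCACA on the other); start 1 is the outer one.
Zbtb7b start 1 (chr3:89393379-89393628, - strand): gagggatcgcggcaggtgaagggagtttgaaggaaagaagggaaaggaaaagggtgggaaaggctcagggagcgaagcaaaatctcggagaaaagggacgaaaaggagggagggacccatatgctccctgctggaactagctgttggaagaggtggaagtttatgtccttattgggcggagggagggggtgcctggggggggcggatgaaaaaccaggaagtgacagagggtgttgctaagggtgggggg
Zbtb7b start 2 (chr3:89387672-89387921, - strand): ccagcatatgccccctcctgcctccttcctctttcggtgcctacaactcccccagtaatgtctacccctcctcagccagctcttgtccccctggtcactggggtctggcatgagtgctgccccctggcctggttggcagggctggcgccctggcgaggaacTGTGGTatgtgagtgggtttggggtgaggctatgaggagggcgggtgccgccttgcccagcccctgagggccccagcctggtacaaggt
Runx3 start 1 (chr4:135120395-135120644, + strand): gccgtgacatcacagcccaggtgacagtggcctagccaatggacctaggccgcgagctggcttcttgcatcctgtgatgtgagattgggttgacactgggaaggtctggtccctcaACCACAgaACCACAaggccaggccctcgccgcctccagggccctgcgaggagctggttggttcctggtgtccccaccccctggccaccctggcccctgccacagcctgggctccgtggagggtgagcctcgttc
Runx3 start 2 (chr4:135152295-135152544, + strand): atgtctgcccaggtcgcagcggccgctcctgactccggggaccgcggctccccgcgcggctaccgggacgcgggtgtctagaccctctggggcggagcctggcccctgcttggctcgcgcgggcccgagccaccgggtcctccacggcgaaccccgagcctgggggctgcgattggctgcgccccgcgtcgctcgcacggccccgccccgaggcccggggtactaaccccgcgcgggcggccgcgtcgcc

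The outer Runx3 sequence held 2 matches to TGTGGT, beginning 134 and 126 bases before the start on the opposite strand. Zbtb7b start 2 held 1, and the other sequences held none. Of 32851 RefSeq promoter sequences of this length, 14.0% held at least 1 match and 1.27% at least 2. The Tcf/Lef core CTTTGA, held by 13.8% of all promoters, and the longer CTTTGAA that contains it, held by 4.46%, had 0 matches in these 4 windows of sequence. A match is a run of letters and not a measured binding site. Whether an island sits on a given start was not tested.

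Reads within islands ranged from 248234 to 4025243 per histone library, and the labels state no library totals. WT CD8 stood apart: 33.3% of its H3K27ac islands overlapped one of its own H3K27me3 islands, against 13.6% in DKO CD8 and 14.8% in WT CD4. For H3K4me3, 80.2% of the WT CD8 islands had no island of WT CD4, and this share was still 53.3% among the 169 with at least 109 reads. The reverse share was not far off over the whole WT CD4 list, at 71.3%, but 5.26% among its 685 islands with at least 100 reads. Values between libraries are therefore given on 2 scales. The first divides by the median ratio of regions with an island in both libraries, and the second by total island reads. Values inside 1 library need neither. Covered length needs no read scale, but it moves with depth and calling. H3K9ac islands, for example, covered 45.6 Mb in all in WT CD4, 13.5 Mb in WT CD8 and 11.5 Mb in DKO CD8.

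At Zbtb7b, H3K27me3 split by lineage: both CD8 groups had it over most of the window, and WT CD4 at the lower edge only. H3K4me3 and H3K27ac covered more of the window in WT CD4 than in either CD8 group, but their summed reads were within 2-fold of WT CD8 on the median scale. Of those WT CD8 reads, 51 of 117 for H3K4me3 and 46 of 89 for H3K27ac came from 1 short place, described below. The ratios without it were not computed. H3K27me3 islands covered 60.0% of the window in WT CD8 (24.0 kb), 88.0% in DKO CD8 (35.2 kb) and 4.50% in WT CD4 (1.80 kb). Of all 40 kb tiles with an island in any library, 0.375% were covered as much in WT CD8 and 0.197% in DKO CD8, whereas 26.4% reached the WT CD4 value. The median tile was at 0% in each of these libraries.

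**Figure D1:**
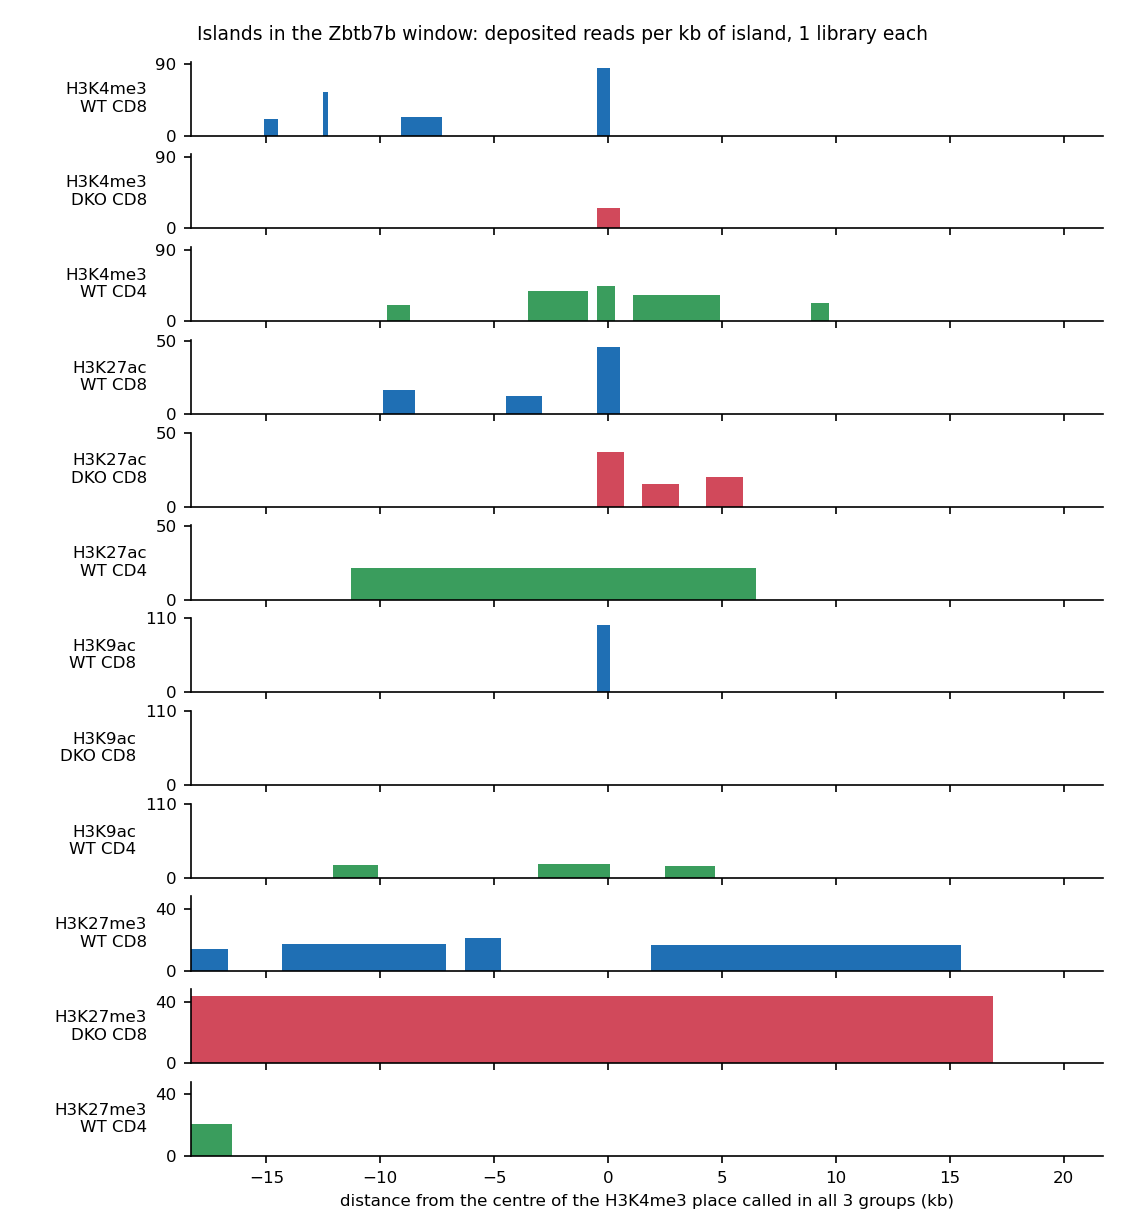
Islands in the Zbtb7b window, 1 row per mark and group; bars span each island, and their height is deposited reads per kb of island (y axis, shared within a mark), against distance in kb from the centre of the H3K4me3 place called in all 3 groups (x axis). The DKO CD8 H3K27me3 row is filled by 1 island from the left edge to beyond 15 kb, and the WT CD4 H3K27ac row by 1 island of 17.8 kb.

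In DKO CD8 a single H3K27me3 island, chromosome 3, 89150801 to 89210200, spanned 59.4 kb with 2594 reads (43.7 reads per kb). It was the 14th widest and the 29th by reads of 23933 islands of that library. It ran past the lower edge of the window by 24.2 kb, and it is longer than the gene, which spans 16.0 kb in RefSeq (GRCm38.p6) with Dcst2 and Lenep as its coding neighbours. Within the same span WT CD8 had 6 islands over 45.8 kb (77.1% of it) with 732 reads. Their density was 14.0 to 21.2 reads per kb, and they left a gap between 89188600 and 89195201. WT CD4 had 5 islands over 20.8 kb (35.0%) with 509 reads. All 5 lay at or below 89176800, so that from that point to the end of the span, which holds the CD4 H3K4me3 and H3K27ac islands of the window, WT CD4 had no H3K27me3 island.

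Island reads for H3K27me3 summed to 498 (95% interval 455 to 544) in WT CD8, 2594 (2495 to 2696) in DKO CD8 and 79 (62.5 to 98.5) in WT CD4, whole islands counted. DKO CD8 was the highest of the 3 and WT CD4 the lowest. On the median scale the log2 ratio was 5.26 (4.94 to 5.60) for DKO CD8 over WT CD4, higher than in any of the 11819 tiles with islands in both; 5.47% of those tiles were at least 2-fold higher. Over the merged region of both groups, which adds the WT CD4 islands outside the window, it was 2.57 (2.44 to 2.71), where 3.79% of shared regions were at least 2-fold higher. For WT CD4 over WT CD8 it was -4.04 (-4.40 to -3.69), where 26.6% of tiles were at least 2-fold lower and 1.26% were as low. This value rests on the window's edge: with the window widened by 10 kb it was -1.93 (-2.12 to -1.74), and over 89168201 to 89176800, the only region there with islands of both, it was -0.79 (-1.14 to -0.43). The other 3 WT CD8 islands of the window had no WT CD4 counterpart, as for 63.3% of the WT CD8 list. Among WT CD8 islands with at least as many reads, the share was 60.4% for the island of 126 reads, 60.7% for that of 34 and 34.9% for that of 224. For DKO CD8 over WT CD8 it was 1.22 (1.08 to 1.36), where 12% of tiles were at least 2-fold higher. That last value did not hold as a 2-fold difference: with reads counted in proportion to the part of each island inside the window it was 0.76, and over the merged region of 60.2 kb it was 0.66. On total island reads the 3 ratios were 5.43, -3.30 and 2.12. The comparisons over WT CD8 share its library.

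H3K4me3, the promoter mark, covered 22.5% of the Zbtb7b window in WT CD4, 8.0% in WT CD8 and 2.50% in DKO CD8. Only 0.0556% of tiles were covered as much in WT CD4. The 5 WT CD4 islands held 299 reads, the 4 WT CD8 islands 117 and the single DKO CD8 island 26. WT CD4 was thus highest and DKO CD8 lowest. Most of the WT CD4 reads lay in 2 wide islands called in no other group, 89194401 to 89198200 (124 reads, 76th widest of its list) and 89189801 to 89192400 (100 reads). In a measure chosen after the values had been seen, absence was set against islands with at least as many reads: of the 685 WT CD4 islands with at least 100 reads, 5.26% had no WT CD8 island and 5.55% no DKO CD8 island. Over all regions of either group, 32.7% had an island in WT CD4 without one in WT CD8 and 54.3% the reverse. Between the 2 wide islands lay 89192801 to 89193800, the place called in all 3 groups, with 51 reads in WT CD8, 26 in DKO CD8 cells and 36 in WT CD4. A WT CD8 island at 89184201 to 89186000 (42 reads) overlapped a WT CD4 island of 21 reads, and DKO CD8 had none there; 49.7% of the WT CD8 islands with at least 42 reads had no DKO CD8 island.

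Summed over the window, the H3K4me3 log2 ratio of DKO CD8 over WT CD4 was -2.90 (-3.54 to -2.32), with 9.45% of tiles at least 2-fold lower and 0.0898% as low. DKO CD8 over WT CD8 was -2.25 (-2.92 to -1.63), with 20.6% of tiles at least 2-fold lower and 3.24% as low. WT CD4 over WT CD8 was 0.67 (0.35 to 0.99), within 2-fold on the median scale and 1.52 on total island reads. DKO CD8 was lower than both wild types on both scales.

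H3K27ac at Zbtb7b was 1 island of 17.8 kb in WT CD4, 89182001 to 89199800, with 389 reads. It was the 42nd widest of 24476 and covered 44.5% of the window. WT CD8 had 3 islands with 89 reads that covered 4 kb, and DKO CD8 had 3 with 102 reads that covered 4.4 kb. All 6 CD8 islands lay inside the span of the CD4 island. The log2 ratio of DKO CD8 over WT CD4 was -1.54 (-1.87 to -1.22), with 9.18% of tiles at least 2-fold lower, and -1.58 on total island reads. WT CD4 over WT CD8 was 0.25 (-0.09 to 0.60) on the median scale and 1.84 on total island reads. DKO CD8 over WT CD8 changed sign with the scale, from -1.24 (30.4% of tiles at least 2-fold lower) to 0.27. With the 3 lists trimmed to the same total length by dropping their sparsest islands, the WT CD8 islands covered 2.50% of the window, and those of DKO CD8 and WT CD4 were all kept.

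H3K9ac islands covered 7.40 kb in WT CD4 with 144 reads in 3 islands, and 0.60 kb in WT CD8 with 60 reads in 1 island. The summed reads of WT CD4 were not above those of WT CD8 by 2-fold on either scale: the log2 ratio was 0.06 (-0.39 to 0.52) on the median scale and -0.83 on total island reads. DKO CD8 had no H3K9ac island in the window, and since reads outside islands are not listed it has no fold here. Over all regions, 51.8% of those of WT CD8 or DKO CD8 had an island in WT CD8 alone, and 81.2% of those of WT CD4 or DKO CD8 had one in WT CD4 alone. With the lists trimmed to the same total length WT CD4 had no H3K9ac island left here, while the WT CD8 island was kept. The WT CD8 island, 89192801 to 89193400, had 100 reads per kb, a density above 99.9% of its list. The same start, 89192801, opened islands of H3K4me3 in all 3 groups (85.0, 26.0 and 45.0 reads per kb in WT CD8, DKO CD8 and WT CD4) and of H3K27ac in WT CD8 (46.0) and DKO CD8 (37.5). This short place was thus called for 3 different antibodies at one position. It held all 60 WT CD8 H3K9ac reads and all 26 DKO CD8 H3K4me3 reads of the window, so the sums and ratios there lean on it. Inputs were not analysed here, and whether this place reflects the marks was not tested.

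At Runx3, a gene on the plus strand between Syf2 and Clic4 in RefSeq (GRCm38.p6), the groups differed at the upstream of the 2 main H3K4me3 places. These 2 are the regions with the most H3K4me3 reads summed over the 3 groups. Within a group others held more than the downstream one. WT CD8 had 57 reads at 134741401 to 134743600, and DKO CD8 had 27 at 134667001 to 134669000, without an island of either wild type. Of DKO CD8 islands with at least 27 reads, 21.6% had no WT CD8 island and 24.4% no WT CD4 island. The upstream place, chromosome 4, 134676001 to 134679800, held 109 H3K4me3 reads in WT CD8, against 41 in DKO CD8, with no island in WT CD4. The downstream place, 134708601 to 134710600, held 36 reads in WT CD8, 26 in DKO CD8 cells and 66 in WT CD4. So the CD8 groups had both places and the CD4 cells the downstream one alone. The WT CD8 upstream island was the 163rd by reads of 42013, but 53.3% of WT CD8 islands with at least as many reads also had no WT CD4 island. For the DKO CD8 island this share was 17.2%. In DKO CD8 the upstream region was below WT CD8 by a log2 ratio of -1.49 (-2.04 to -0.96), where 7.4% of shared H3K4me3 regions were at least 2-fold lower, and by -0.77 on total island reads. The downstream region stayed within 2-fold in each pair on the median scale, at -0.55 for DKO CD8 over WT CD8, 0.19 for WT CD4 over WT CD8 and -0.72 for DKO CD8 over WT CD4; WT CD4 over WT CD8 was 1.04 on total island reads.

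**Figure D2:**
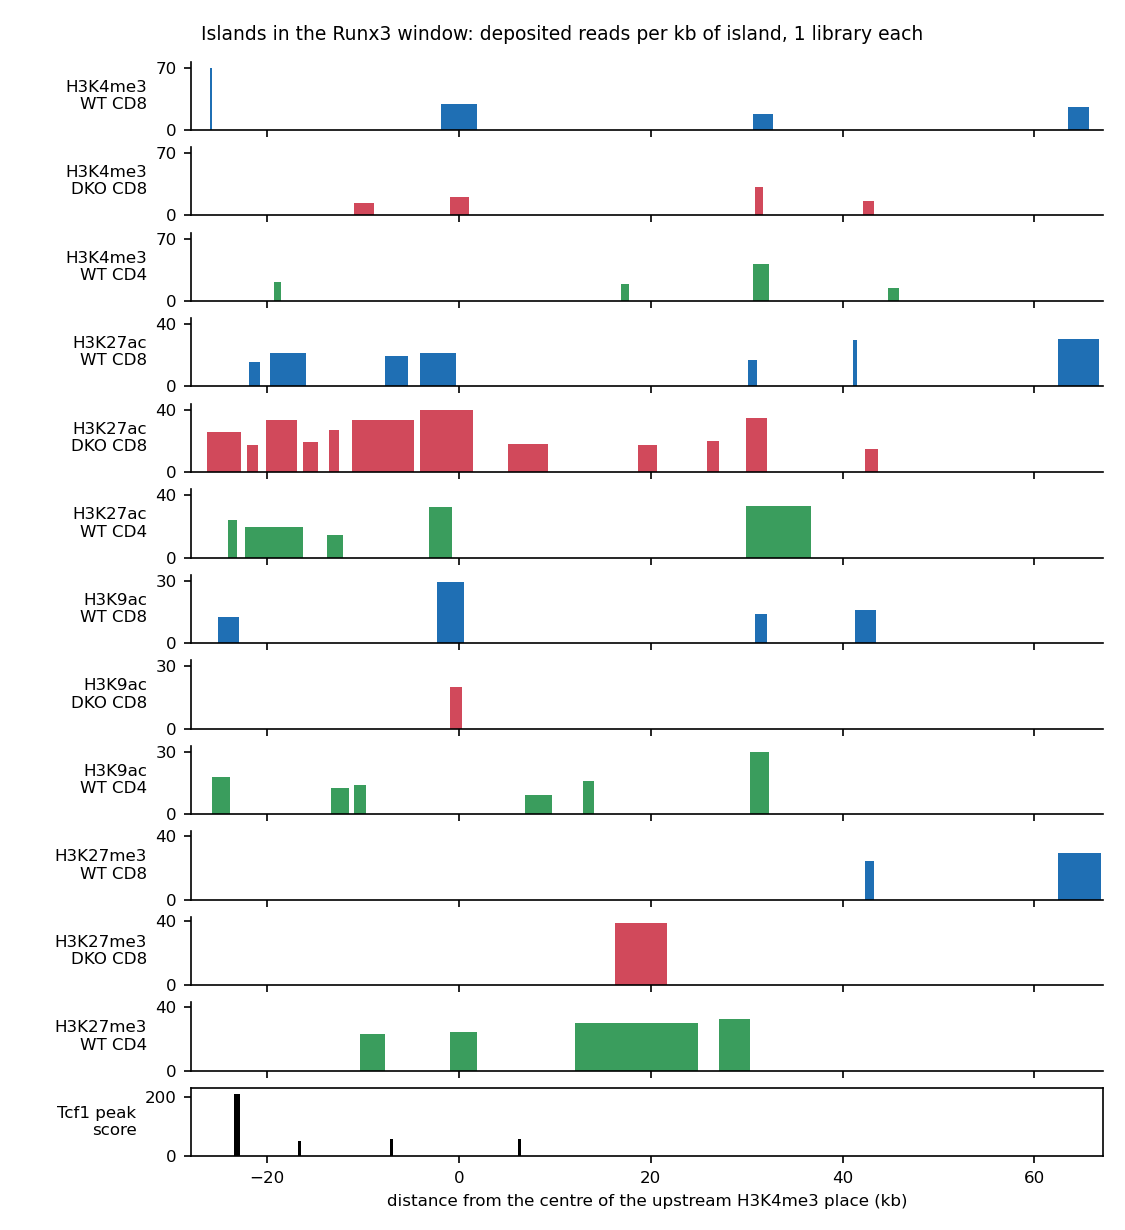
Islands in the Runx3 window, 1 row per mark and group, as deposited reads per kb of island (y axis, shared within a mark) against distance in kb from the centre of the upstream H3K4me3 place (x axis); the last row gives the authors' score of the 4 Tcf1 peaks. H3K4me3 at 0 kb is present in the CD8 rows and absent from the WT CD4 row, which has H3K27me3 there, and the downstream place near 32 kb is present in each group.

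In summed island reads, the other active marks followed the same order inside each library. H3K27ac islands at the upstream place held 82 reads (WT CD8), 223 (DKO CD8) and 77 (WT CD4), and those at the downstream place 17, 76 and 223. Upstream over downstream this gave a log2 ratio of 2.27 (1.5 to 3.12) for WT CD8, 1.55 (1.17 to 1.95) for DKO CD8 and -1.53 (-1.93 to -1.15) for WT CD4. Reads of whole islands that touch each place were summed, with no scale between libraries. H3K9ac gave 82 and 17 reads in WT CD8 (log2 ratio 2.27), 24 upstream and no downstream island in DKO CD8, and 60 downstream and no upstream island in WT CD4. Among islands with at least as many reads, 13.0% of those of WT CD8 upstream had no WT CD4 island. For the DKO CD8 island this share was 27.6%, against 29.3% of its whole list. Downstream, the share without a DKO CD8 island was 65.3% for WT CD8 and 23.7% for WT CD4. H3K4me3 gave 1.60 (1.04 to 2.18) in WT CD8 and 0.66 (-0.09 to 1.42) in DKO CD8. Of these 2 places, acetylation thus lay mainly upstream in both CD8 groups and mainly downstream in WT CD4, and this measure was chosen after the values had been seen.

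H3K27me3 at Runx3 was widest in CD4 cells. It covered 21.4 kb in WT CD4 (22.5% of the window, 4 islands, 613 reads), 5.40 kb in DKO CD8 (1 island, 210 reads) and 5.40 kb in WT CD8 (2 islands, 152 reads). Of 95 kb tiles, 7.87% were covered as much in WT CD4, so this extent is less unusual than that at Zbtb7b. One WT CD4 island, 134677001 to 134679800 (68 reads), lay within the upstream H3K4me3 place of the CD8 groups. The widest, 134690001 to 134702800 (12.8 kb, 381 reads), lay between the 2 places, and another, 134705001 to 134708200 (104 reads), ended below the downstream one. No WT CD4 island here had a WT CD8 counterpart, as for 42.2% of regions of either group; among WT CD4 islands with at least as many reads, the share was 1.12% for the island of 381 reads, 24.3% for that of 104, 40.8% for that of 68 and 45.5% for that of 60. The DKO CD8 island, 134694201 to 134699600, lay wholly inside the widest WT CD4 island. WT CD8 had no H3K27me3 island between the 2 places, and its 2 islands lay beyond them, at 134720201 to 134721200 and 134740401 to 134744800. Over the widest WT CD4 island DKO CD8 over WT CD4 was -0.63 (-0.88 to -0.39), and for the window -1.32 (-1.55 to -1.09), where 16.7% of tiles were at least 2-fold lower.

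The WT CD8 island at the far end of the window was called for opposing marks. Between 134740401 and 134744800 WT CD8 had 128 H3K27me3 reads, 128 H3K27ac reads and 57 H3K4me3 reads, and neither DKO CD8 nor WT CD4 had an island of any of these marks. Of the WT CD8 H3K27ac islands with at least 128 reads, 75.9% had no DKO CD8 island, so this is common in that list. The window narrowed by 5 kb leaves this place out. H3K27me3 of WT CD8 then fell from 152 to 24 reads, H3K27ac from 386 to 258 and H3K4me3 from 216 to 145. The H3K27me3 log2 ratio of DKO CD8 over WT CD8 then went from -0.70 to 1.97, and that of WT CD4 over WT CD8 from 0.63 to 3.29. Without that place both groups were above WT CD8 for H3K27me3 at Runx3, but these ratios rest on few WT CD8 reads. The 24 reads are those of the island at 134720201 to 134721200, below its list's median of 49.

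H3K27ac at Runx3 was most extensive in DKO CD8, with 12 islands over 33.6 kb (35.4% of the window) and 946 reads. WT CD8 had 7 islands over 16.8 kb with 386 reads, and WT CD4 had 5 over 17.8 kb with 466 reads. Of 95 kb tiles with an island in any library, 0.261% were covered as much in DKO CD8. DKO CD8 over WT CD4 was 1.42 (1.25 to 1.58), with 7.78% of tiles at least 2-fold higher, and 1.38 on total island reads. DKO CD8 over WT CD8 changed sign with the scale, from -0.15 (-0.32 to 0.03) to 1.36. WT CD4 over WT CD8 was -1.61, where 37.4% of tiles were at least 2-fold lower, and -0.01 on total island reads. The islands of DKO CD8 formed a near-continuous stretch from 134651601 to 134679400 before and over the upstream place. In that stretch the region 134666801 to 134673200 had 215 reads in DKO CD8 and 47 in WT CD8, with no WT CD4 island; 0.850% of DKO CD8 islands with at least 215 reads had none in WT CD4.

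Other H3K27ac regions of the window set DKO CD8 apart from WT CD4 in both directions. Higher in DKO CD8 were 134651601 to 134655200 (92 reads against 24, log2 ratio 2.33, 1.67 to 3.05) and 134673801 to 134679400 (223 against 77; 1.93, 1.55 to 2.32), where 4.3% of shared H3K27ac regions were at least 2-fold higher. Lower was the downstream place, 134707801 to 134714600 (76 against 223; -1.16, -1.55 to -0.78), where 7.25% were at least 2-fold lower. The same downstream region was higher in WT CD4 than in WT CD8 (223 against 17; 1.83, 1.12 to 2.64), where 6.3% were at least 2-fold higher. DKO CD8 alone had H3K27ac islands at 134683001 to 134687200 (75 reads) and 134696601 to 134698600 (35 reads). Over all regions, 24.7% of those of DKO CD8 or WT CD8 and 33.5% of those of DKO CD8 or WT CD4 had an island in DKO CD8 alone, but among the 7297 DKO CD8 islands with at least 75 reads 12.7% lacked a WT CD8 island and 1.37% a WT CD4 island. The island of 35 reads lay inside its own H3K27me3 island.

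H3K9ac at Runx3 covered 10.8 kb in WT CD4 (6 islands, 177 reads), 8.40 kb in WT CD8 (4 islands, 162 reads) and 1.20 kb in DKO CD8 (1 island, 24 reads). DKO CD8 was the lowest in length and in reads. Its only island, 134677001 to 134678200, lay in the upstream place. The log2 ratio of DKO CD8 over WT CD8 was -3.53 (-4.21 to -2.90), with 16.9% of tiles at least 2-fold lower and 0.0617% as low, and -2.94 on total island reads. At the upstream region alone it was -2.55 (-3.27 to -1.88), where 3.56% of shared H3K9ac regions were at least 2-fold lower. DKO CD8 over WT CD4 was -2.30 (24.8% of tiles at least 2-fold lower) and -0.97 on total island reads. WT CD4 over WT CD8 was -1.08 (12.9% of tiles at least 2-fold lower) and -1.96 on that scale. The DKO CD8 H3K9ac list was the shortest of all, with 6516 islands, and its part in the low count was not tested.

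Summed over the Runx3 window, H3K4me3 islands held 216 reads in WT CD8, 114 in DKO CD8 cells and 116 in WT CD4. WT CD4 over WT CD8 had a log2 ratio of -1.58 (-1.92 to -1.25), where 31.8% of tiles were at least 2-fold lower, and -0.73 on total island reads. DKO CD8 over WT CD8 stood exactly at the 2-fold threshold, at -1.0 (29.5% of tiles at least 2-fold lower), and at -0.28 on total island reads. With shares of tiles this large, neither sum stood apart from the background.

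Few merged regions of the windows had islands in both groups compared. Of the 11 shared by DKO CD8 and WT CD8, 5 were at least 2-fold lower in DKO CD8 and 0 higher. These were 2 H3K4me3 regions (background 7.4%), 2 H3K27ac regions (15.2%) and the upstream H3K9ac region. Of the 11 shared by WT CD4 and WT CD8, 6 were lower in WT CD4: 2 H3K4me3 regions at Zbtb7b (background 8%), 2 H3K27ac regions at Runx3 (13.5%) and 1 H3K9ac region in each window (11.4%). The downstream H3K27ac place of Runx3 was the 1 that was higher. Both counts use the WT CD8 library, and both depend on the scale: on total island reads 1 was lower in DKO CD8 and 4 were higher, and 2 were lower in WT CD4 and 3 higher. Of the 10 shared by DKO CD8 and WT CD4, 3 were higher and 2 lower, all described above, and each of these 5 was still more than 2-fold apart on total island reads.

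**Figure D3:**
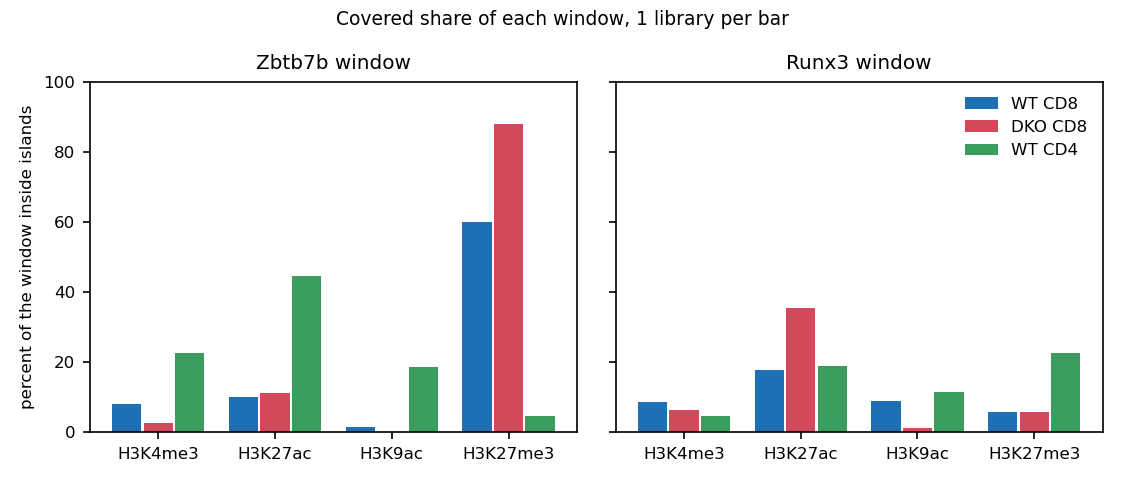
Percent of each window inside islands (y axis, from 0) by mark (x axis) and group, 1 library per bar. H3K27me3 at Zbtb7b stands at 60.0% and 88.0% in the CD8 groups and 4.50% in WT CD4, and at Runx3 it is highest in WT CD4 at 22.5%.

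**Figure D4:**
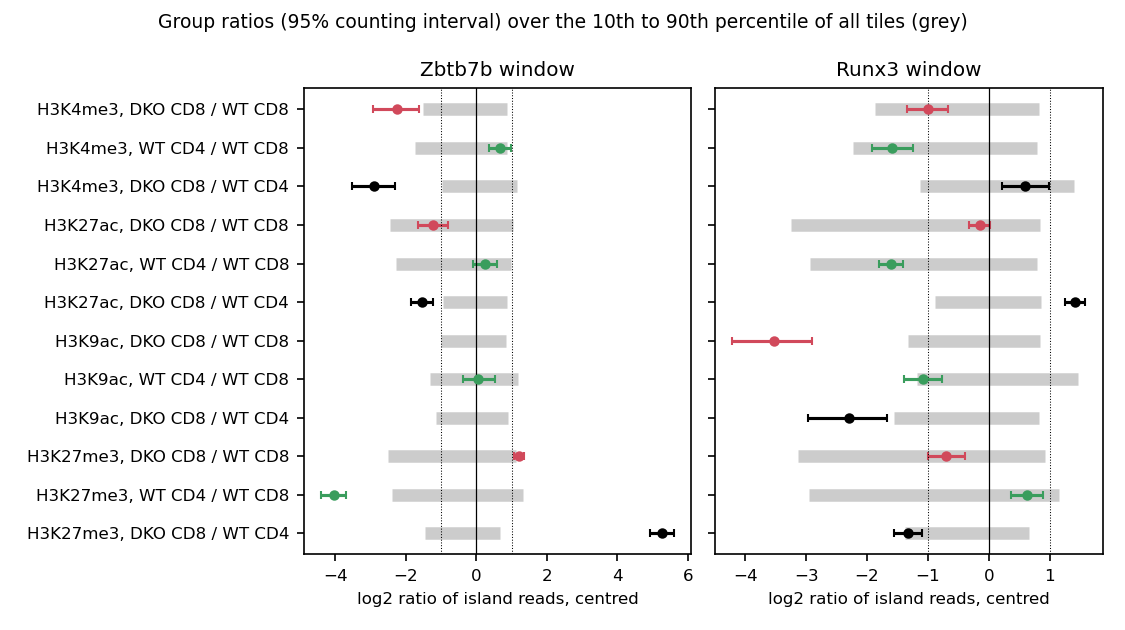
Centred log2 ratio of window island reads between groups (x axis) for each mark and pair of groups (y axis), with 95% counting intervals. Grey bars give the 10th to 90th percentile of tiles as wide as the window with islands in both libraries. Dotted lines mark 2-fold. At Zbtb7b the H3K27me3 ratio of DKO CD8 over WT CD4 lies at 5.26, beyond the grey bar, while most Runx3 ratios lie within theirs.

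Setting the genes against each other inside each library avoids any scale between libraries; this comparison was also chosen after the values had been seen. Per kb of window, with reads counted in proportion to the part of each island inside, H3K27me3 islands held 10.2 reads at Zbtb7b and 1.60 at Runx3 in WT CD8. The values were 38.4 and 2.21 for DKO CD8, and 0.936 and 6.45 for WT CD4. The log2 ratio of Zbtb7b over Runx3 was 2.67 (2.40 to 2.95), 4.12 (3.91 to 4.33) and -2.79 (-3.32 to -2.32). With whole islands counted, as elsewhere, it was 2.96 (2.70 to 3.23), 4.87 (4.67 to 5.08) and -1.71 (-2.06 to -1.37). H3K27me3 thus favoured Zbtb7b in both CD8 groups and Runx3 in WT CD4. The window edges matter for these values. With both windows widened by 10 kb, which adds the islands beside Zbtb7b described above, the WT CD4 ratio became 0.22. With both narrowed by 5 kb, which drops the WT CD8 island at the far end of Runx3, the WT CD8 ratio became 5.5 and passed that of DKO CD8, at 5.13. The WT CD8 value then rests on 24 reads at Runx3.

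**Figure D5:**
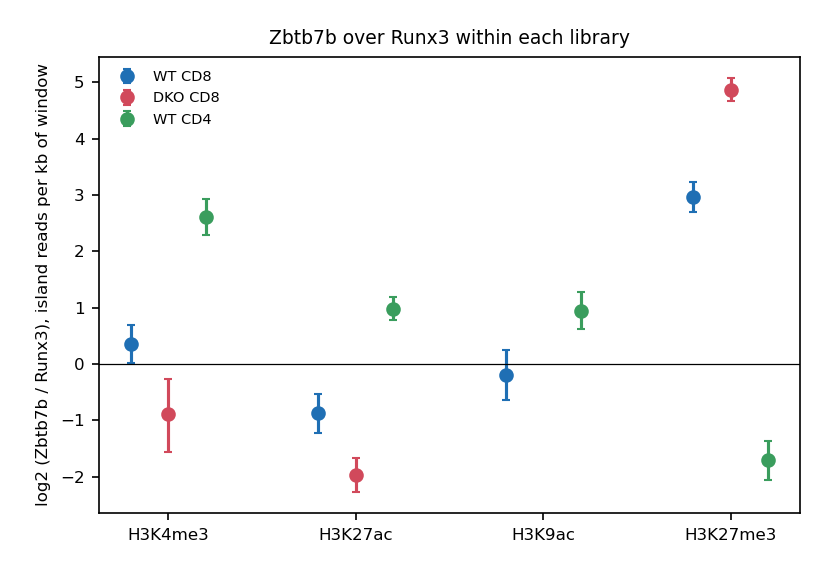
Log2 ratio of island reads per kb of window, Zbtb7b over Runx3, within each library (y axis) by mark (x axis), with 95% counting intervals; DKO CD8 H3K9ac has no point because it had no Zbtb7b island. WT CD4 is the highest group for H3K4me3, at 2.61, and the lowest for H3K27me3, at -1.71.

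For H3K4me3 the same ratio was 2.61 (2.30 to 2.94) in WT CD4, 0.36 (0.03 to 0.69) in WT CD8 and -0.88 (-1.56 to -0.26) in DKO CD8. For H3K27ac it was 0.99 (0.79 to 1.18) in WT CD4, -0.87 (-1.22 to -0.53) in WT CD8 and -1.97 (-2.27 to -1.67) in DKO CD8. In both marks WT CD8 stood between the other groups. For H3K27me3 that order holds for the windows as set and turns in the narrowed ones. H3K9ac gave 0.95 (0.62 to 1.28) in WT CD4 and -0.19 (-0.64 to 0.25) in WT CD8.

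Tcf1 binding in splenic CD8 cells was recorded at Runx3 and not at Zbtb7b. The 4 Runx3 peaks lay at 134654425 to 134655113 (the authors' score 209.46), 134661165 to 134661463 (51.85), 134670751 to 134670970 (56.25) and 134684099 to 134684328 (58.85). The first ranked 486th of 7807 by score. The other 3 scored below the list's median of 76.41, close to its lowest score of 50. Of 95 kb tiles, 18.3% held at least 1 peak and 1.06% at least 4. No peak lay in the Zbtb7b window, as for most 40 kb tiles, of which 10.5% held at least 1; the nearest was 7.02 kb outside it, with a score of 125.37. A peak is missing from this list when it falls below the calling threshold.

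The first 3 peaks lay before the upstream H3K4me3 place and the fourth after it. H3K27ac islands held 3 of the 4 in DKO CD8, 2 in WT CD8 and 2 in WT CD4, against 74.8%, 55.8% and 81.5% of all peaks. The strongest peak lay in a DKO CD8 H3K27ac island (92 reads) and overlapped a WT CD4 island (24 reads) and a WT CD8 H3K9ac island (28 reads). The peak at 134684099 lay in a DKO CD8 H3K27ac island of 75 reads and in no other island. The peak at 134670751 lay in H3K27ac islands of WT CD8 (47 reads) and DKO CD8 (215 reads). That at 134661165 lay in those of WT CD8 (81 reads) and WT CD4 (119 reads), 138 bp from the nearest DKO CD8 island. None lay in an H3K4me3 or H3K27me3 island of any group. The count of 3 of the 4 in cells with Tcf1 and Lef1 deleted is close to the 74.8% of all peaks. Whether acetylation at these peaks depends on either factor was not tested. The peaks come from spleen and the islands from thymus.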

How the data were processed

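Per the submitters' processing notes, the tools were SICER 1.1, Bowtie2 2.2.5, FastQC and MACS 1.4.2, and the build was mm9; which tool made which list is not given in the sources used here. The island lists deposited by the authors give a whole-number read count per island, not scaled to depth, 1 list per library. Islands lie on a 200 bp grid. The peak list deposited by the authors gives a score per peak, of at least 50, used only to rank peaks within it. Each library's sequencing depth is not stated.

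From these files, islands and peaks sharing at least 1 bp with a window were kept, and reads of whole islands were summed. Intervals are exact Poisson intervals for sums and Clopper-Pearson intervals, conditional on the sum of the 2 counts, for ratios. Ratios were centred on the median log2 ratio of regions with an island in both libraries. A region or window at least 2-fold from that median was counted as higher or lower, and a window without an island in a library got no ratio. Background came from all such regions and from tiles of the genome as wide as the window. For coverage and Tcf1 peaks these were the tiles with an island in any library. For ratios they were the tiles with islands in both libraries compared. The text names the Tcf1 peaks, the main region of each mark and the regions that differed or were called in some groups only. Members and lists were chosen with earlier results of these data known. Simulated counts with known ratios were used to check the ratio step. No mm9 annotation was used here, so the planned list of other lineage genes was not run; sequences are from RefSeq, GRCm38.p6, for 2 of 2 genes. Of the 17 samples, the 3 inputs and the Tcf1-deficient library were not analysed here. The software was pandas 2.3.3 and numpy 2.4.6 under Python 3.11.15, with intervals from SciPy 1.17.1 and plots from matplotlib 3.10.9.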

Additional observations from a re-analysis of the deposited data

How the results depend on the processing

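Of 22 window ratios, 18 kept their sign on total island reads and on that total without the 0.1% strongest islands, 21 with the median of regions of at least 50 reads and 21 with that of regions with H3K4me3 in all groups; no cause of a change was tested. At Zbtb7b, H3K27ac of DKO CD8 over WT CD8 turned from -1.24 to 0.27 and 0.26 on these totals, its region at 89192801 from -1.47 to 0.038 on total island reads, and the Runx3 H3K27ac region at 134655801 from -1.30 to 0.21. Of 8 windows and marks, DKO CD8 was at least 2-fold above WT CD8 in 1, in 0 with reads in proportion or the median of regions with H3K4me3 in all groups, and in 2 with narrowed windows or either total; it was below in 4, and in 2 with islands above their list's median or either total. WT CD4 was at least 2-fold above WT CD8 in 0, in 1 with narrowed windows or islands above their list's median and in 3 on either total, and below in 4, or 2 on either total. DKO CD8 was above WT CD4 in 2, or 1 with narrowed windows. Of the 11 shared regions, DKO CD8 was above WT CD8 in 0 (4 on total island reads, 3 at 1.5-fold) and below in 5 (1 on total island reads); WT CD4 was above WT CD8 in 1 (3 on total island reads, 2 at 1.5-fold) and below in 6 (2 on total island reads). Of 10, DKO CD8 was below WT CD4 in 2 (4 at 1.5-fold). DKO CD8 covered more bp than WT CD8 in 3 of 8, or 5 with narrowed windows. The H3K27me3 ratio of Zbtb7b over Runx3 within the library went from 2.96 in WT CD8 to 2.67 with reads in proportion, 2.58 with at least 50% of the island inside and 5.5 in narrowed windows. In DKO CD8 it went from 4.87 to 4.12 with reads in proportion, 4.35 in widened and 5.13 in narrowed windows, and in WT CD4 from -1.71 to -2.79 with reads in proportion and 0.22 in widened windows. Widened windows held 1 Tcf1 peak at Zbtb7b, and 1 of the 4 at Runx3 scored above the list's median. No paired analysis was possible because each group had 1 library per mark. Depth limits weak islands: the smallest in the windows held 11 reads.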
